A study of Drosophila melanogaster with 2 samples.

Results

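Xrp1-eGFP peaks that lay in later introns, away from any promoter, are described here. They are the conservative peaks whose summit was more than 500 bp from every annotated transcription start site (TSS), outside every exon, inside an intron of a protein-coding gene and inside the first intron of no transcript. There were 950 of them among the 7534 conservative peaks of the 6 arms (X, 4 and both arms of 2 and 3), or 12.6% (95% Wilson interval 11.9 to 13.4%). The other classes used for comparison were 1973 distal first-intron peaks under the same distance and exon rules, 888 intergenic peaks over 2000 bp from a TSS, and 2977 promoter peaks within 500 bp of one. The measurements are chromatin immunoprecipitation and sequencing (ChIP-seq) peak lists from whole Drosophila melanogaster embryos aged 8 to 24 hours. Transgenic flies made Xrp1 from an insertion, as a fusion with a green fluorescent protein (eGFP), and chromatin was precipitated with an antibody to GFP. There was 1 group of 2 biological replicates, and no untagged strain, mock precipitation or other stage was analysed here. A whole embryo mixes all its tissues, so the lists do not show in which cells a site was occupied.

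Xrp1 is a basic leucine zipper (bZIP) protein with an AT-hook, a small element that contacts the minor groove of AT-rich DNA. It pairs with Irbp18, the fly's C/EBP-type partner, and is known for its part in the response to DNA damage, in cell competition and in the integrated stress response beside Crc, the fly ATF4. Introns of developmental genes in flies carry many enhancers, and first introns hold a large part of them. Later introns are removed from the same transcripts but lie farther from the start.

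Sequences are shown for a few summits, chosen for their strength or for a motif that the results below turn on, and they are not typical of the 950 in motif content. Each line gives the plus strand of dm6, 5′ to 3′, from the RefSeq genome, over the 50 bases on either side of the summit base. Capitals mark a match to the forkhead core TGTTTAC or to the C/EBP-ATF composite TGATGNAA on either strand. The first sequences are among the strongest peaks, in CG11050 (chr2L:6612655-6612755), Trl (chr3L:14759472-14759572), JIL-1 (chr3L:11084731-11084831) and Raf (chrX:2297656-2297756).
CG11050: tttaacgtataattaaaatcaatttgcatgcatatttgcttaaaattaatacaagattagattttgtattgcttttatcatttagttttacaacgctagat
Trl: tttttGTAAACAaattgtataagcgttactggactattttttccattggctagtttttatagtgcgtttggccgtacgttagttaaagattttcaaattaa
JIL-1: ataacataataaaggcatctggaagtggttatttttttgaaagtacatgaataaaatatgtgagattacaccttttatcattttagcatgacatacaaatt
Raf: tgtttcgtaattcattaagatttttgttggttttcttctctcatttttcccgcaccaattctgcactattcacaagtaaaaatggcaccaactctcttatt
GC content was 21.8% in the CG11050 window, 29.7% in Trl, 25.7% in JIL-1 and 33.7% in Raf. None of these windows held the C/EBP-ATF composite, and the Trl window held the forkhead core. The relaxed C/EBP site TTGCNNAA, which is not marked in capitals, was in the CG11050 window and in none of the others.

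The forkhead core was also found in the windows of a second Raf peak (chrX:2300653-2300753), of Rbfox1 (chr3L:10519089-10519189) and of CG14434 (chrX:6854681-6854781). These examples are among the strongest with that core, and the core was singled out after its values were seen. The strongest windows with the C/EBP-ATF composite were in fz (chr3L:14335987-14336087) and Ten-a (chrX:12217809-12217909).
Raf, rank 15: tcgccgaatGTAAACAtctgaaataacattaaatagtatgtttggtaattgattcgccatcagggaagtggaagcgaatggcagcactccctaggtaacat
Rbfox1: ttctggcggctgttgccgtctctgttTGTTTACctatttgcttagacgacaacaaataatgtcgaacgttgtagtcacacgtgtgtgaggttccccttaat
CG14434: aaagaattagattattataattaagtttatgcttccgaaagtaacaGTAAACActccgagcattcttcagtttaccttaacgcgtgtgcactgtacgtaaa
fz: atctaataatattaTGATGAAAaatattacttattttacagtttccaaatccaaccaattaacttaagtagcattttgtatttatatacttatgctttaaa
Ten-a: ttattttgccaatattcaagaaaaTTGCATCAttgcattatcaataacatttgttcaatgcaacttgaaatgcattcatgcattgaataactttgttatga
The composite peaks ranked 95 in fz and 186 in Ten-a among the 950, and the palindrome TTGCGCAA was in none of the 950 windows.

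Peak strength is the authors' own signal value, which ranks peaks only within a list. Later-intron peaks had a median signal of 124, with the middle 50% between 86.1 and 186 and the extremes at 3.72 and 2953. Of the 33 peaks with a signal under 30, 32 overlapped another conservative peak. The strongest later-intron peak was in CG11050 (chr2L:6612472-6612907), with a signal of 2953. In the replicates' own ranked lists it had 1897 in replicate 1 and 1053 in replicate 2. It was the peak of rank 2 in the whole conservative list. Its summit lay in the second intron, which is only 140 bp long, 65 bp from the nearest exon and 1018 bp from the TSS, so the called peak of 436 bp covered flanking exon sequence too. The next strongest lay in the second intron of Trl (chr3L:14759314-14759709), which encodes the GAGA factor, a zinc-finger protein of open promoters. Its signal was 1669, with 1073 in replicate 1 and 596 in replicate 2, and it ranked 25 in the whole list. A weaker peak in the same Trl intron had a signal of 209.

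Below these came 2 peaks in Pli, which encodes the Toll pathway ubiquitin ligase Pellino, with signals of 861 and 674. JIL-1, a histone H3 kinase, held a peak of 825 in its intron 3, with 542 in replicate 1 and 276 in replicate 2. Raf, the kinase between Ras and MEK, held peaks of 816 and 582. The phosphatase gene Ptp61F had a peak of 755, the BMP-binding protein gene cv-2 one of 747 and the axon guidance gene Sema1a one of 691. The summits in Ptp61F, cv-2 and Sema1a were nearest to the TSS of another gene than their host. Of the host introns in Ptp61F, cv-2 and Sema1a, that of Ptp61F was the longest, at 126467 bp, and that of cv-2 the shortest, at 2875 bp. The rest of the 20 strongest were in sick (683), rdx (675), zfh1 (672), Notch (N, 633), kirre (590), shn (579), CG1677 (573), Msp300 (571), Psc (547) and mam (530). Among these, rdx is an adaptor of a ubiquitin ligase that acts on Ci, N and mam belong to the Notch pathway, and Psc is a Polycomb group protein. In all 20 the signal was higher in replicate 1 than in replicate 2, and all 20 were in both replicates' own thresholded lists.

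**Figure D1:**
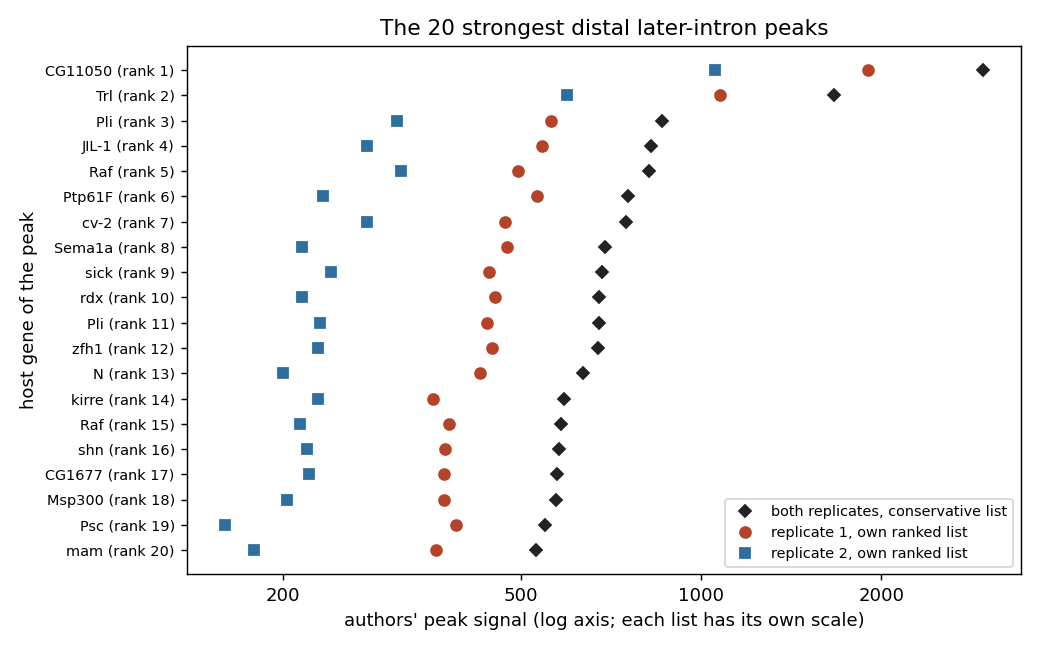
The authors' peak signal (log axis) of the 20 strongest distal later-intron peaks, named by host gene. Diamonds are the conservative list of both replicates, circles replicate 1 and squares replicate 2 in their own ranked lists, and the CG11050 peak (2953) and the Trl peak (1669) lie apart from the others.

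The higher values in replicate 1 were general. Among 945 later-intron peaks found in both replicates' ranked lists, the ratio of replicate 1 to replicate 2 had a median of 1.77, with the middle 50% from 1.38 to 2.17, and replicate 1 was higher in 868. The scaling of the signal to depth is not stated and the depth of neither replicate is known, so this ratio was not read as a difference between embryos. By the thresholded lists, 804 of the 950 (84.6%) overlapped a peak of replicate 1 and 501 (52.7%) a peak of replicate 2. Both lists held 480, or 50.5%, and neither held 125. First-intron peaks were in both lists in 51.4% of cases, intergenic peaks in 48.5% and promoter peaks in 52.8%. None of these shares was called different from that of later-intron peaks (Fisher's exact test, two-sided, adjusted exact p = 0.664, 0.602 and 0.602). The intervals and tests in this account take peaks as units, cover counting error only and carry no information on variation between embryos.

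Later introns held fewer peaks per base than first introns. The 950 peaks lay in 29.4 Mb of sequence that met the rule, or 32.3 per Mb (95% exact Poisson interval 30.3 to 34.4). First introns held 88.9 per Mb (85 to 92.9) in 22.2 Mb. The ratio was 0.364 (exact binomial test, p = 2.60e-156). Intergenic sequence beyond 2000 bp held 30.5 per Mb and promoters 164 per Mb.

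First introns lie nearer to start sites, so the densities were also compared within ranges of distance to the nearest TSS. At 500 to 1000 bp, later introns held 57.1 peaks per Mb and first introns 137, a ratio of 0.417. At 1000 to 2000 bp the values were 41 in later and 112 in first introns, and at 2000 to 5000 bp they were 40.1 in later and 86.8 in first introns. At 5000 to 10000 bp later introns held 39.5 and first introns 71.3, and beyond 10000 bp later introns held 20.7 and first introns 50.6. Density was lower in later introns in all 5 ranges, with ratios between 0.366 and 0.554 (exact binomial tests, highest adjusted exact p = 2.21e-12). It was lowest beyond 10000 bp in both classes. Among the 90143 ranked peaks of the replicate comparison on these arms, before any threshold, 15101 met the later-intron rule and 6.29% of them passed to the conservative list. The share was 9.90% in first introns (adjusted exact p = 2.41e-34), 7.53% in intergenic sequence (7.14e-05) and 16.3% at promoters (5.21e-184, Fisher's exact tests).

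Strength differed less than density. Of the later-intron peaks, 191 (20.1%) were among the strongest 25% of the conservative list, against 25.7% of first-intron peaks (difference of -5.59 percentage points, adjusted exact p = 0.00128) and 28.5% of promoter peaks (-8.41 points, 5.92e-07). The share in intergenic peaks was 19.7%, 0.398 points below later introns (adjusted exact p = 0.861). Medians were close, at 124 in later introns, 123 in first introns, 122 in intergenic sequence and 125 at promoters, so the classes parted in their upper tails. Of the 100 strongest conservative peaks, 2 were in later introns, 20 in first introns, 5 in intergenic sequence and 69 at promoters. Within ranges of TSS distance the difference from first introns was not called. The strongest 25% held 27.6% of later-intron and 28.7% of first-intron peaks at 500 to 1000 bp (adjusted exact p = 1), and 13.9% of later-intron and 21.9% of first-intron peaks beyond 10000 bp (adjusted exact p = 0.129).

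**Figure D2:**
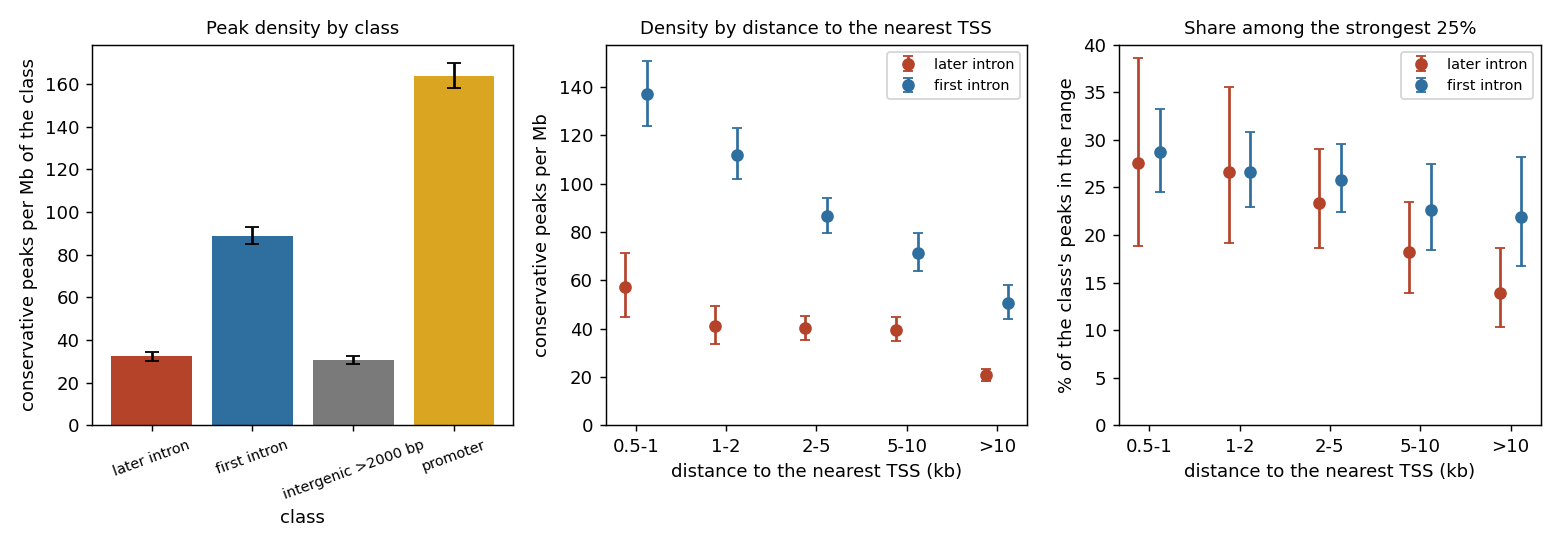
Left, conservative peaks per Mb of sequence in each class with 95% exact Poisson intervals. Middle and right, later introns beside first introns by distance to the nearest TSS, as peaks per Mb and as the share of peaks among the strongest 25% of the list (95% Wilson intervals); densities stand apart in all 5 ranges while the share intervals overlap.

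The distance limit of the rule did not fall at a gap in the data. The members just inside it were in Pino (501 bp from a TSS, signal 192), CAP (502 bp, 338) and CG43658 (503 bp, 78.6). Those just outside were in CG14434 (492 bp, 369), cpo (495 bp, 159) and egr (496 bp, 249). There were 20 peaks at 500 to 600 bp with a median signal of 169 and 19 at 400 to 500 bp with a median of 172.

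The later-intron summits were AT-rich, with a sharp dip in GC content at the centre. These windows, of 50 bases on either side, had a median GC content of 30.7%, against 42.6% in windows 500 bp to the right. GC was lower at the summit in 732 of 950 peaks, higher in 198 and equal in 20 (exact sign test, p = 1.29e-72), and the left flank gave 740 lower and 192 higher (1.78e-76). Mean GC was 31.9% in the 25 bases just right of the summit, against 42.7% in the outermost 25 bases on the left. First-intron summits had a median of 31.7%, intergenic summits 30.7% and promoter summits 32.7%. By the share of windows above the median of the whole list, later introns (44.9%) differed from promoters (52.7%, adjusted exact p = 0.000105). In the list of replicate 2 alone the difference from promoters was 0.826 points and not called. No difference was called from first introns (48.3%, 0.134) or intergenic sequence (42%, 0.204). The difference from intergenic peaks, 2.94 points as reported, was called in the list of replicate 1 alone (6.8 points, adjusted exact p = 0.00832) and in the second list of both replicates (5.45 points, 0.015).

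**Figure D3:**
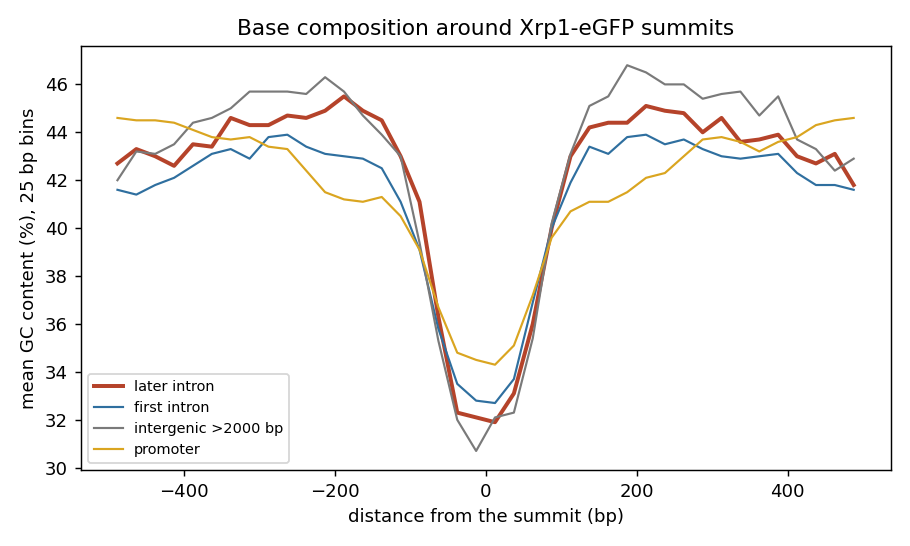
Mean GC content (%) in 25 bp bins by distance from the summit (bp), for later-intron peaks (thick line) and the other classes. All 4 classes dip at the summit, and the later-intron line is at 31.9% just right of it.

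Low GC content went with higher signal. Later-intron peaks under 25% GC had a median signal of 146, and 54 of 188 (28.7%) were among the strongest 25% of the list. At 35% GC or more the median was 98.4 and 33 of 305 (10.8%) were among them (Fisher's exact test, adjusted exact p = 1.03e-06). The same direction was called in first introns (35.9% under 25% GC, 14.3% at 35% or more, adjusted exact p = 2.59e-15), in intergenic sequence (23.6% and 13.8% in that order, 0.00775) and at promoters (47.9% and 10.6%, 4.33e-68). Whether base composition affected the recovery of fragments was not tested, since the lists hold no input signal.

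Words of 6 bases showed the same composition. Of 2080 words counted with their reverse complements, 227 (10.9%) were in more summit windows than flank windows and 395 (19.0%) in fewer (exact McNemar test, adjusted p under 0.05). The leading word was AAATAT, in 36.6% of summit windows and 15.9% of flank windows (adjusted exact p = 5.75e-21). AATATT was in 23.2% of summit and 7.58% of flank windows, TTAAAA in 31.8% and 13.9%, ATATTA in 21.7% and 8.32%, and AATATA in 24.7% and 10.6%. All 5 consist of A and T alone. With the shorter list of replicate 2 alone, 94 words were called higher and 99 lower. The words lost most clearly at summits were AATGCG (1.47% of summit windows, 7.26% of flank windows), ATGCGG (0.421% and 4.53%), GGGCCA (1.05% and 5.79%), CCCCAA (1.47% and 6.74%) and CTGGCC (1.26% and 6.11%).

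No motif of the bZIP family was called different between later-intron summits and the windows beside them. The C/EBP-ATF composite TGATGNAA was in 16 summit windows (1.68%) and 15 flank windows (1.58%). The relaxed C/EBP site TTGCNNAA was in 81 summit windows (8.53%) and 82 flank windows (8.63%), and the cAMP response element TGACGTNA in 4 summit and 5 flank windows. The AP-1 site TGANTCA was in 30 summit windows (3.16%, interval 2.22 to 4.47%) and 19 flank windows (2%, adjusted exact p = 0.523), and in 2.01% of the eligible later-intron sequence sampled at each 1000 bases. The composite, the relaxed site and the C/EBP palindrome overlap in sequence, and at least 1 of them was in 96 summit windows (10.1%) and 97 flank windows (10.2%). That share was 10.7% over 29373 windows laid at each 1000 bases of eligible later-intron sequence. It was 10.6% at first-intron, 10.4% at intergenic and 10.2% at promoter summits. Strength made no difference here, with 25 of the 238 strongest and 25 of the 238 weakest later-intron peaks holding one. All motifs were searched on both strands, and a match describes the letters only. Summit windows were poorer in GC than flank windows, and the motif tests were not matched for base composition. Equal shares at summits and flanks therefore do not exclude enrichment at like composition. Only the forkhead core, below, was set beside words of the same letters.

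The forkhead core TGTTTAC was the only 1 of 24 motifs (4.17%) called higher at summits than in right flanks. Forkhead factors are winged-helix proteins that in fly embryos include those of the gut, muscle and nervous system. The core was in 42 summit windows (4.42%) and 10 flank windows (1.05%), with no window pair holding it in both (exact McNemar test, adjusted exact p = 0.000218). It was in 2.04% of the windows of eligible later-intron sequence. In bins of 50 bp, each of the 3 bins from 50 bp left to 100 bp right of the summit held 22 matches, and the other bins within 500 bp held 4 to 16. The difference between summit and flank, 32 windows, was the highest among the 210 words made of the same 7 letters, with 29 for the next and a median of 5. The core had been singled out by this same difference, so its rank among those words is not separate support. It did not go with strength: 9 of the 238 strongest (3.78%) and 12 of the 238 weakest peaks (5.04%) held the core. First-intron summits held it in 5.37% of windows and their flanks in 2.94%. On the replicates' own lists the call did not hold for replicate 2 alone, where adjusted p was 0.0771. It was not called in windows of 25 bases a side either (adjusted exact p = 0.0599).

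The GAGA repeat GAGAGAG, the site of the protein that Trl encodes, went the other way and was likewise 1 of 24 (4.17%) called lower. It was in 10 summit windows (1.05%) and 34 right flank windows (3.58%, adjusted exact p = 0.00219). Against left flanks the difference was not called (adjusted exact p = 0.172), and the share over all eligible sequence was 1.31%. The homeodomain core TAATTA was in 9.37% of summit and 6.42% of flank windows (adjusted exact p = 0.116), and runs of 8 A in 11.1% of summit and 8% of flank windows (0.116). Neither passed the threshold.

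**Figure D4:**
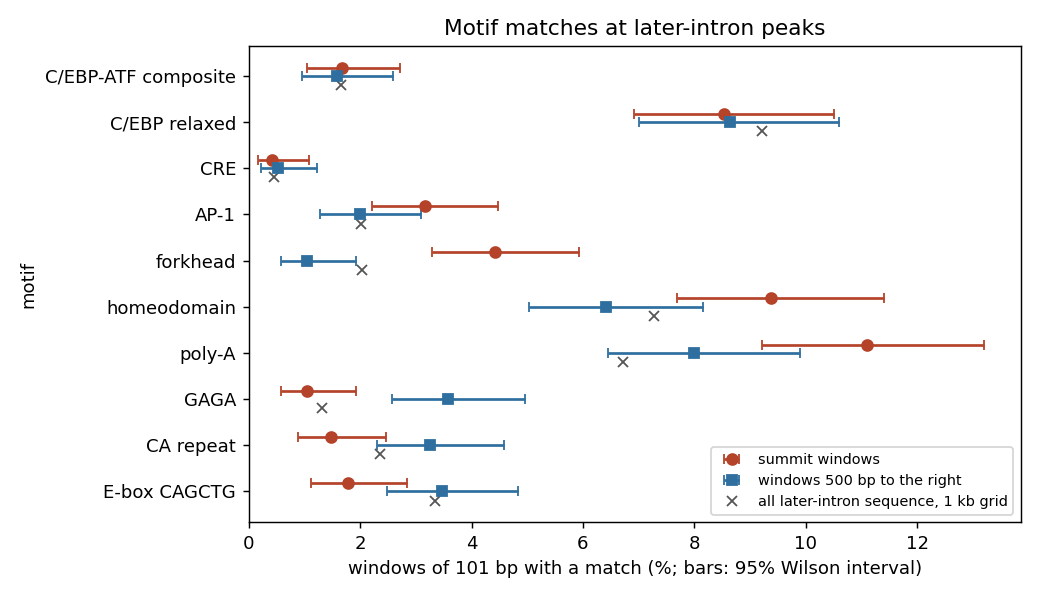
Share (%) of windows, 50 bases on either side of the centre, of the 950 later-intron peaks with a match to 10 of the 24 motifs, at the summit (circles) and 500 bp to the right (squares), with 95% Wilson intervals. Crosses give the share over all eligible later-intron sequence; the forkhead core is at 4.42% at summits and 1.05% in flanks, and the C/EBP-type sites coincide.

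Set against other classes, later-intron summits differed in motif content from promoters. No motif was called higher or lower than at first-intron summits (0 of 24, 0.00%), where the lowest unadjusted p was 0.0159 for the STAT site (2.21% of later-intron and 3.95% of first-intron windows). Against promoter summits, 3 of 24 (12.5%) were lower. These were the DNA replication-related element TATCGATA (0.105% in later introns, 2.72% at promoters, adjusted exact p = 1.09e-07), the E-box CAGCTG (1.79% and 4.57%, 0.000543) and the M1BP core GGTCACAC (0.211% and 1.24%, 0.0233). The element and the M1BP core are known from promoters of broadly expressed genes. The run of 8 A was the 1 motif called higher, in 11.1% of later-intron and 7.19% of promoter windows (adjusted exact p = 0.00178). In the list of replicate 2 alone, with 537 later-intron peaks, none of the 24 was called against promoters, and the adjusted exact p for the replication-related element was 0.0571. The M1BP call was also lost in the list of replicate 1 alone (adjusted exact p = 0.172) and when only peaks up to a global IDR of 0.005 were kept (0.0981).

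Most later-intron peaks were in long introns, and most often in the second intron of the host gene, counted by the lowest number over its transcripts. The host intron had a median length of 14039 bp (140 to 132737), and 575 peaks (60.5%) were in introns over 10000 bp, against 40 in introns under 1000 bp. Intron 2 held 557 peaks (58.6%), intron 3 held 175, intron 4 held 107 and intron 5 held 42. These counts were not set against the eligible sequence by intron length or number, so they show no preference. Median signals were 129 in intron 2, 114 in intron 3, 111 in intron 4 and 132 from intron 5 on. The share among the strongest 25% of the list was 22.6% in intron 2, 14.3% in intron 3, 14% in intron 4 and 22.5% from intron 5 on, differences that were not tested. Within its intron, 553 of 950 summits (58.2%) lay in the 5′ 50% (exact binomial test against 50%, p = 4.66e-07). The eligible sequence of those introns was itself uneven, with 53.7% in the 5′ 50%, and against that share p was 0.00568. Of 10 bins of equal length per intron, the most 3′ held 52 peaks and the most 5′ held 108. Summits were a median of 5465 bp from the nearest TSS and 1868 bp from the nearest exon. That TSS belonged to the host gene for 512 peaks (53.9%) and to another gene for 438. Of those 438, 255 were nearest to the start of a single protein-coding gene. The other 183 were nearest to the start of a gene that does not encode a protein, or to a start shared by several genes. Annotated transposable elements held 2 summits.

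The peaks fell in 447 of the 7577 protein-coding genes that have such sequence (5.90%), and genes with more of it held peaks more often. The share was 0.366% of genes with under 1000 bp, 8.87% at 1000 to 5000 bp, 26.8% at 5000 to 20000 bp and 43.2% at 20000 bp or more. Peaks per Mb of such sequence were 14.3, 46.4, 45.9 and 27 in the same order. Density was thus not highest in the genes with most of it. Genes with a peak had a median of 12071 bp of such sequence, and all genes 305 bp. There were 248 genes with 1 peak and 42 with 5 or more, and those 42 held 322 of the 950.

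The cell adhesion gene kirre, whose protein marks muscle founder cells for fusion, held most, with 22 peaks over 310 kb of a gene at chrX:2740384-3134532. A peak in overlapping introns of several genes was counted for each of them here, as for 2 kirre peaks that also lie in CG32795 and 1 that also lies in rst. Their signals ran from 78.5 to 590, and 7 were among the strongest 25%. Only 1 of the 27 conservative peaks within its bounds was a distal first-intron peak. CG1677 (chrX:7281089-7405797) held 16, with signals of 73.5 to 573 and 9 among the strongest 25%. They came in runs: 7292041, 7293244, 7293785 and 7294351 were the summits at one end, with signals of 413, 573, 304 and 498. The nearest TSS of all 4 was that of another gene, unc-119. The homeodomain gene hth (chr3R:10507561-10639568), partner of Hox proteins, held 15, spread over 7 introns, and 1 of them (357) was among the strongest 25%.

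Raf (chrX:2295466-2343870) held 10, all in its second intron. From the 5′ end their signals were 147, 816, 468, 582, 74.3, 296, 263, 134, 370 and 220, so that 7 were among the strongest 25%. The ETS factor gene pnt and rdx also held 10 each, with medians of 155 and 133. Pli held 9 in its second intron, of which 861 and 674 stood above the rest, since no other was above 145. The kinase gene msn of the JNK pathway held 9, from 59.3 to 430, at 367 peaks per Mb, the highest density among the 10 genes with most peaks. SKIP held 12 with a median of 95.3 and Tet 9 with a median of 100. Neighbouring summits were often close: 102 adjacent pairs of later-intron peaks were within 1000 bp of each other, and 196 of the 549 introns with a peak held more than 1.

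**Figure D5:**
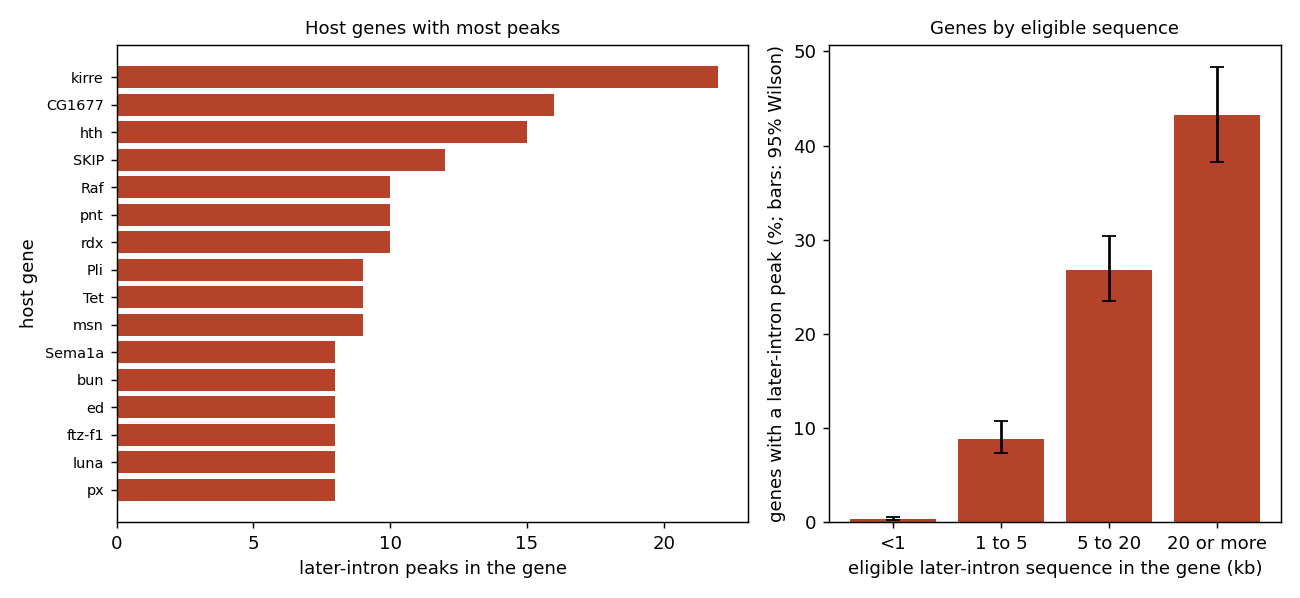
Left, the number of distal later-intron peaks in each of 16 host genes with most of them. Right, the share (%) of protein-coding genes with such a peak by the length of eligible later-intron sequence (kb), with 95% Wilson intervals; it goes from 0.366% to 43.2%.

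Peaks were denser on the X chromosome than on the other arms pooled. The X held 225 peaks in 4.98 Mb, or 45.1 per Mb, against 29.7 per Mb elsewhere, a ratio of 1.52 (exact binomial test, p = 1.21e-07). Without kirre, CG1677 and Raf the X held 38.4 per Mb, a ratio of 1.29 (exact p = 0.00303). First introns held 93.9 per Mb on the X and 87.6 on the other arms (ratio 1.07, exact p = 0.2). The X peaks were also stronger: 68 of 225 (30.2%) were among the strongest 25% of the list, against 123 of 725 (17%) on the other arms (Fisher's exact test, adjusted exact p = 0.000147). Without the same 3 genes it was 45 of 177 (25.4%, exact p = 0.013). The shares in first introns were 24.5% on the X and 26% on the other arms (adjusted exact p = 0.533). They were 12% on the X and 20.5% elsewhere in intergenic sequence (0.162), and 30% on the X and 28.2% elsewhere at promoters (0.533). Whether the X effect differed between the classes was not tested. Arm 2L held 39.8 per Mb, 3L 30.1, 3R 27.3 and 2R 26.8, and chromosome 4 held 1 peak, in zfh2. The 95% exact Poisson intervals of later-intron density overlapped between the X (39.4 to 51.4) and 2L (34.1 to 46.1). Without kirre, CG1677 and Raf the X, at 38.4 per Mb, was below 2L. The X was not tested against 2L alone.

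Genes of the factor itself held no such peak, though they offered little room. Xrp1 had 108 bp of eligible later-intron sequence, Irbp18 none and crc 1770 bp. In a list of integrated stress response and bZIP genes, 2 of 16 with such sequence held 1 (12.5%), against 5.90% of all genes. The list had a median of 0.859 kb of it, and of all genes with under 1000 bp 0.366% held a peak. The 2 genes were Ire1, the endoplasmic reticulum stress sensor (signal 103, with 46.2 in replicate 1 and 55.5 in replicate 2), and Sesn, a sestrin (81.4). Both signals were below the median of 124. Ire1 had 3.23 kb of eligible sequence and Sesn 12.9 kb, so the median of the list does not describe them.

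The share of genes with a peak in the other lists was likewise read beside the 5.90% of all genes and beside their length, since listed genes were longer. Among axon guidance and cell adhesion genes, 20 of 51 (39.2%) held one, with a median of 19.4 kb of eligible sequence. Their strongest were in Sema1a (691), kirre (590), the netrin gene NetA (438) and Ten-a (388). Of neural and other developmental transcription factor genes 20 of 46 (43.5%, median 16.7 kb) held one, led by zfh1 (672), pnt (471), mamo (273) and bi (270). RNA-binding and splicing genes had 11 of 27 (40.7%, 17.3 kb), led by Rbfox1 (453), how (294), heph (217) and Rbp6 (213). These 3 lists lay near the 43.2% of all genes with 20000 bp or more and above the 26.8% of those with 5000 to 20000 bp. Ion channel and receptor genes had 6 of 48 (12.5%) at a median of 8.43 kb, and synaptic genes 3 of 23 (13%) at 9.65 kb, both under that 26.8%.

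Shorter genes made up the remaining lists. Signalling genes had 10 of 44 (22.7%, 1.14 kb), led by the receptor genes N (633) and tkv (322), the inhibitory Smad gene Dad (363) and the Wingless co-receptor arr (286). Muscle and heart genes had 8 of 29 (27.6%, 5.01 kb), with Msp300, a giant nuclear envelope protein, at 571, the dystrophin gene Dys at 397, the integrin gene if at 356 and Zasp66 at 345. Epidermis, trachea and septate junction genes had 6 of 25 (24%, 3.48 kb), led by the Wingless receptor genes fz (317) and fz2 (196). Chromatin and insulator genes had 4 of 24 (16.7%, 0.596 kb), with Trl (1669) and Psc (547) far above kis (169) and psq (165). Hox, segmentation and homeodomain genes had 3 of 28 (10.7%, 4.25 kb), namely hth (357), pb (138) and Abd-B (79.7). By median length, the muscle list stands beside the 26.8% of all genes with 5000 to 20000 bp of such sequence. The chromatin list stands beside the 0.366% of those under 1000 bp. The other lists of this paragraph stand beside the 8.87% of those with 1000 to 5000 bp. Medians hide the spread within a list. The chromatin genes with a peak had 3.76 kb (Trl), 6.84 kb (Psc), 5.88 kb (kis) and 7.57 kb (psq). Among signalling genes, N had 15.1 kb, arr 21.3 kb and Dad 9.72 kb, but tkv 2.46 kb. Peaks per Mb of eligible sequence were 92.7 in the signalling list, 32.8 in muscle, 57 in epidermis, 102 in chromatin and 62.9 in Hox. In the Hox list, hth held 15 of the 17 peaks. The lists of longer genes ran from 8.42 (ion channels) to 61.9 (developmental transcription factors). Over the length groups of all genes the range was 14.3 to 46.4. No comparison matched for length was run, so an excess beyond length was not tested.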

How the data were processed

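ChIP-seq peak lists of 2 biological replicates, 1 group, were read as deposited in dm6. Per the labels, sonicated chromatin (200 to 800 bp) was precipitated with anti-GFP; aligner, peak caller and filters: not given in the sources used here. They result from irreproducible discovery rate (IDR) analysis, which retains peaks ranked alike between replicates. The signal is the authors' deposited value per peak, and its scaling is not stated. The score is the authors' deposited IDR score, and −log10 of the global IDR was taken from the authors' deposited ranked lists. Signals were used to rank within a list. No file gives reads, so depth is unknown.

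Summits were classed with the Ensembl release 115 annotation (18164 genes, 23581 TSSs), leaving out 5809 transposable element entries as genes; 3 peaks off the 6 arms were left out. Where introns overlapped, the shortest was the host intron. Motifs and words were sought in windows of 50 bases on either side of the RefSeq genome, against windows 500 bp to the right. Tests were two-sided Fisher's exact, exact McNemar and exact binomial tests, called at an adjusted p under 0.05. Benjamini-Hochberg adjustment was within each family of 3 or 4 classes, 5 distance ranges, 24 motifs or 2080 words. Single tests were not adjusted: the whole density ratio, position in the intron, GC against flanks, X density, and X strength without the named genes. The motif and word tests were tried on the flank windows of these peaks, with and without a motif planted at random places. The other steps were not tried in this way. The peaks, the 12 gene lists, the motifs and the tests were chosen with earlier results of these data known. Named were the 20 strongest peaks, the 10 genes with most peaks, Xrp1, Irbp18 and crc, up to 4 genes per list, and 5 words each way; other genes were named after their values were seen. Comparisons by TSS distance, of GC against flanks or strength, of motifs by strength, and of the X were added after the data were seen. Alternatives changed the list, replicate, distance, IDR, window, flank, overlap or host intron. The lists are described by counts; 1 list and 1 summit sequence are not reported here. Tools were SciPy 1.17.1, NumPy 2.4.6, pandas 2.3.3, matplotlib 3.10.9 and Python 3.11.15.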

Additional observations from a re-analysis of the deposited data

How the results depend on the processing

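Density in later introns relative to first introns lay between 0.346 and 0.385 over 7 alternatives, leaving aside the ranges of TSS distance given above, the 5′ share between 56.6% and 58.7% over 8, and the strength difference from first introns between -7.16 and -2.94 points over 9 further ones, each past its threshold throughout. Within ranges of TSS distance, from the nearest to the farthest, the strength difference was -1.04, -0.033, -2.42, -4.41 and -8.03 points and was called in none. Replicate support was called under no alternative and the passing shares under every one run.

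Strength against intergenic peaks (0.398 points as reported) was -0.176 on the second list of both replicates, -0.526 with the strongest of overlapping peaks, -0.256 at a TSS distance of 1000 bp, -1.18 for the strongest 10%, and 12.9 with 1 peak per host gene. That last setting takes the strongest intronic peak of each gene, which raises the intronic share by construction, and gave 4.05 points against promoters. GC against intergenic peaks was called on the second list (5.45 points) and on replicate 1's own list (6.8).

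Motifs called against flanks, higher and lower (1 and 1 as reported), were 1 and 2 on the second list and with the strongest of overlapping peaks, 0 and 0 in windows of 25 bases a side, 2 and 2 in windows of 100 bases a side, and 4 and 2 against the left flank. Against first introns, windows of 100 bases a side gave 1 and 1, and against promoters (1 and 3 as reported) windows of 25 bases a side gave 0 and 1. With peaks up to a global IDR of 0.005, the number lower than at promoters was 2. The composite's difference from flanks, 0.105 points as reported, was -0.219 with the strongest of overlapping peaks and -0.105 in windows of 100 bases a side. It was 0.737 in windows of 25 bases a side (adjusted exact p = 0.33) and 0.421 against the left flank. The relaxed site's difference was -0.105 as reported. With the strongest of overlapping peaks it was 0.11, at 1000 bp 0.229, in windows of 25 bases a side 0.105 and against the left flank 0.316. In windows of 100 bases a side it was -4.32 (adjusted exact p = 0.0736), on the second list -1.07 and on replicate 1's own list -1.21. None of these was called. The cause of these changes was not tested.

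On each replicate's own list (991 later-intron peaks in replicate 1, 537 in replicate 2), the lowest and highest values were -0.0231 and 0.189 points for strength against intergenic peaks, 0.859 and 6.8 for GC against intergenic peaks, -4.08 and 0.826 for GC against promoters, and -0.931 and 0 for the composite against flanks. Motifs called against flanks numbered 0 to 3 higher and 1 to 3 lower, and against promoters 0 to 1 higher and 0 to 3 lower. Words called higher numbered 94 to 269 and lower 99 to 511; the shorter list of replicate 2 gave the lower counts.

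No paired analysis was possible because 1 group was analysed. The lists hold no counts, so no value carries an error from depth, and 33 weak peaks nearly all lie on another peak.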
